A study of Mus musculus with 6 samples.

Results

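The vacuolar H+-ATPase (V-ATPase) is a proton pump made of a cytosolic V1 sector, which hydrolyses ATP, and a membrane V0 sector, which carries the protons. It acidifies lysosomes and endosomes, and in the heart the acid lysosome breaks down glycogen, lipids and worn organelles and serves as a platform for nutrient signalling. Several subunits exist as isoforms encoded by separate genes, 1 of them used in most cells and another in few tissues such as kidney or bone-resorbing osteoclasts. The genes described here are 10 of these subunit genes, found by symbol among the 54532 genes of the count table. They are the V1 genes Atp6v1a, Atp6v1b2, Atp6v1c1, Atp6v1c2, Atp6v1d, Atp6v1e1 and Atp6v1h and the V0 genes Atp6v0a1, Atp6v0d1 and Atp6v0d2, and they include both isoforms of subunit C and both isoforms of subunit d. The 10 genes were selected on isoform use as read from the counts of these same libraries, so their own values are given as a description without a test.

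Poly-A nuclear RNA was sequenced from cardiomyocyte (CM) nuclei of wildtype ICR mice that received 1e+11 viral genomes of AAV9 subcutaneously at 6 d of age and whose hearts were collected at 9 d. The virus carried GFP (the control), YAP5SA or YAP6SA under the cardiac troponin T (cTnT) regulatory element, which drives expression in CMs. YAP5SA is an active YAP with serine-to-alanine changes at the LATS1/2 phosphorylation sites, and YAP6SA carries a further serine-to-alanine change that disrupts the interaction with TEAD, the DNA-binding partner of YAP. Each of the 3 groups had 2 libraries, replicates 1 and 2, and 2 hearts per virus were collected. The replicate number was taken as the batch. The nuclei were pulled down with an antibody to PCM1, a protein of CM nuclei, and all groups share this enrichment and the AAV9 vector.

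The gene counts ran from 14552847 to 19615627 per library, so a gene with 0 counts allows up to 3, which is 0.153 to 0.206 CPM (counts scaled to a fixed library size). This limit covers counting error alone. All 12 CM marker genes passed the filter on low values (a median log2 CPM over 1 in at least 1 group, which left 13323 genes). Their summed level was 63343 to 83886 CPM in GFP, 60017 to 76934 CPM in YAP6SA overexpression (OE) CMs and 37881 to 52153 CPM in YAP5SA OE CMs. It was lower in both YAP5SA libraries than in the others, and its part in the results below was not tested. Among these markers Nppa (log2 fold change 1.18) and Myl7 (0.72) rose and Pln (-1.04) and Ryr2 (-0.81) fell in YAP5SA against GFP (edgeR quasi-likelihood test, FDR 0.00744, 0.0189, 0.00784 and 0.0455). Only 2 of the 12 values were above 0, and their median was -0.63 beside -0.003 over all genes. At an unadjusted p under 0.05 in that test, 2 markers were higher and 6 lower, beside 2591 and 2261 of all 13323 genes. At an FDR under 0.05, 4 of the 12 passed, where 22.0% of all genes did. In bulk nuclei, fewer nuclei of a type and less RNA per nucleus cannot be told apart.

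The promoters shown are those of Atp6v1c2, whose counts differed most between the groups, of Atp6v0a1, the member with the most counts, and of Atp6v0d1, whose level was nearly the same in all 3 groups. RefSeq's promoter table (build GRCm38.p6) held 6 of the 10 members, and the 250 bases before the RefSeq start site are printed 5′ to 3′ in the direction of the gene. They lie at chr12:17324731-17324980 (minus strand), chr11:101010148-101010397 (plus strand) and chr8:105566065-105566314 (minus strand). In the GENCODE M21 annotation none of these windows holds an exon base, and the first 2 lie in introns of longer transcripts of their own gene. Capitals mark a match to a searched motif.
Atp6v1c2: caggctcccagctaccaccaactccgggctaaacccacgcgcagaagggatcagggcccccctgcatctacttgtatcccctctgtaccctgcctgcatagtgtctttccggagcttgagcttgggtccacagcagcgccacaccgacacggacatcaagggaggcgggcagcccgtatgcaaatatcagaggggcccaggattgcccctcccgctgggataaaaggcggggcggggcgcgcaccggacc
Atp6v0a1: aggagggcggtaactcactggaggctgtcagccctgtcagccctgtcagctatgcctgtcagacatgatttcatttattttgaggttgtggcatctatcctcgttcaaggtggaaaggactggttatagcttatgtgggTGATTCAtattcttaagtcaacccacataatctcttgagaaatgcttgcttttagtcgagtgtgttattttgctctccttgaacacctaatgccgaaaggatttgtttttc
Atp6v0d1: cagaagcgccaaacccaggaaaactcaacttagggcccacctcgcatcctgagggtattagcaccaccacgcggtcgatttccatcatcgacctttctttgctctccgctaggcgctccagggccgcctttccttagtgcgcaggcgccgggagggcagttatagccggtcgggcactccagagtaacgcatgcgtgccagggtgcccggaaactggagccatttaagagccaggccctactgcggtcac

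The motifs searched on both strands were CACGTG (the E-box bound by TFEB and its relatives), GGAATG (a TEAD motif) and TGANTCA (an AP-1 motif). The Atp6v1c2 window, 64.0% G or C, held none of them. Of all 32851 windows in the table, 12.6% held GGAATG, 6.75% held TGANTCA and 6.02% held CACGTG. Among the 6 member windows, Atp6v0a1 held TGANTCA 111 bases before its start, Atp6v1a held CACGTG 131 bases before its start, and Atp6v1d held GGAATG on the opposite strand 24 bases before its start. These matches are a description of the letters in the windows.

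Atp6v1c2 (ENSMUSG00000020566, chromosome 12, 17284721 to 17329359, minus strand, GRCm38) encodes C2, the tissue-restricted isoform of the subunit that helps to hold the V1 and V0 sectors together. Its counts in batches 1 and 2 were 0 and 0 in GFP, 3 and 0 in YAP6SA, and 187 and 420 in YAP5SA. Both YAP5SA libraries were far above the other 4, and the groups did not overlap. In CPM its level was 12.4 and 23.5 in the YAP5SA libraries, a mean of 18.0 ± 7.89 (SD, n = 2). Against the 3 counts that a GFP library at 0 allows, YAP5SA OE CMs were at least 102-fold higher, and at least 78.5-fold and 120-fold higher within batches 1 and 2. Against YAP6SA OE CMs the ratio of the summed counts, 607 against 3, was 222 per effective library size (exact 95% interval 75.6 to 1080, counting error only). The ratio pools the reads of both libraries of a group, so its interval leaves out the spread between libraries and is no test. No fold is given between YAP6SA and GFP, since neither was above the limit of 3 counts. Atp6v1c2 passed the filter on low values only through the YAP5SA group.

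Atp6v1c1 (chromosome 15, 38661933 to 38692446, plus strand) encodes C1, the isoform used in most tissues, and made up nearly all subunit C in the libraries without Atp6v1c2. It had 983 and 698 counts in GFP, 1005 and 908 in YAP6SA and 554 and 826 in YAP5SA. Its level was 48.6 ± 4.31 CPM in GFP, 53.1 ± 2.77 CPM in YAP6SA OE CMs and 41.5 ± 6.79 CPM in YAP5SA OE CMs. The YAP5SA libraries overlapped those of GFP and lay below those of YAP6SA. The log2 fold change of YAP5SA against GFP was -0.24 (standard error 0.17), with -0.49 within batch 1 and 0.02 within batch 2. C1 was thus lower beside the C2 counts in 1 of the 2 batches.

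The isoform share sets both genes on 1 scale, counts per kb of annotated exons (5.60 kb for Atp6v1c1 and 2.17 kb for Atp6v1c2). On it, Atp6v1c2 made up 46.5% (exact Clopper-Pearson 95% interval 42.3% to 50.7%) of subunit C in the YAP5SA library of batch 1. It made up 56.7% (interval 53.7% to 59.6%) in that of batch 2. In the YAP6SA library of batch 1 the share was 0.763% (interval 0.158% to 2.20%). It was 0 in the other YAP6SA library and in both GFP libraries, where 3 counts would give at most 1.10%. The YAP5SA mean was 51.6% ± 7.21 (SD, n = 2), so C2 was about as abundant as C1 per kb, and 29.5% without the correction for length. The 2 YAP5SA libraries differed by more than their counting intervals.

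The sum of C1 and C2 was 9.23 and 8.14 CPM per kb in GFP, 9.20 and 9.83 in YAP6SA and 12.2 and 19.1 in YAP5SA. On this scale both YAP5SA libraries were above all others. Without the correction for length this did not hold, since the YAP5SA library of batch 1, with 36.7 CPM of Atp6v1c1 and 12.4 CPM of Atp6v1c2, lay within the range of the other groups. The median level of the 5 other V1 members, which was that of Atp6v1e1 in every library, was 8.51 and 8.21 CPM per kb in GFP, 10.0 and 7.92 in YAP6SA and 7.70 and 8.60 in YAP5SA. Relative to that median, total subunit C was 1.04 ± 0.07 for GFP, 1.08 ± 0.23 for YAP6SA and 1.90 ± 0.44 for YAP5SA (ratio of levels, SD, n = 2). C1 alone was 1.04 ± 0.07, 1.08 ± 0.23 and 0.91 ± 0.08 in that order.

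**Figure D1:**
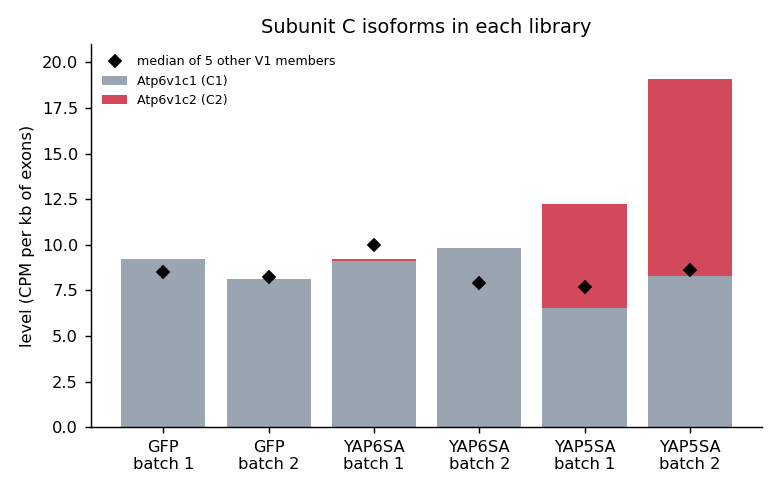
Stacked bars give the level of Atp6v1c1 (grey) and Atp6v1c2 (red) in CPM per kb of exons in each of the 6 libraries, and diamonds give the median of the 5 other V1 members. The red part is 5.70 and 10.8 CPM per kb in the YAP5SA libraries and at or near 0 elsewhere, while the diamonds stay between 7.70 and 10.0.

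The 3′ end of Atp6v1c2 meets the 3′ end of Pdia6, which encodes a protein disulfide isomerase of the endoplasmic reticulum and is read from the other strand. Their exons share 50 bases, 2.3% of the exon bases of Atp6v1c2. The libraries do not mark strand, so reads within those 50 bases cannot be told apart. Pdia6 had 850 and 838 counts in GFP, 993 and 946 in YAP6SA and 1848 and 3871 in YAP5SA. It rose in YAP5SA OE CMs against GFP by 1.73 on the log2 scale (standard error 0.18, edgeR quasi-likelihood test, FDR 0.000432) and against YAP6SA by 1.61 (FDR 0.000761). Atp6v1c2 had 10.1 and 10.8 counts per 100 Pdia6 counts in the YAP5SA libraries, 0 and 0 in GFP, and 0.302 and 0 in YAP6SA. These ratios use the counts on which Atp6v1c2 was selected, and the part of Pdia6 reads in them was not tested. Reads were not given by position, so how the Atp6v1c2 counts spread over its exons was not analysed here.

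**Figure D2:**
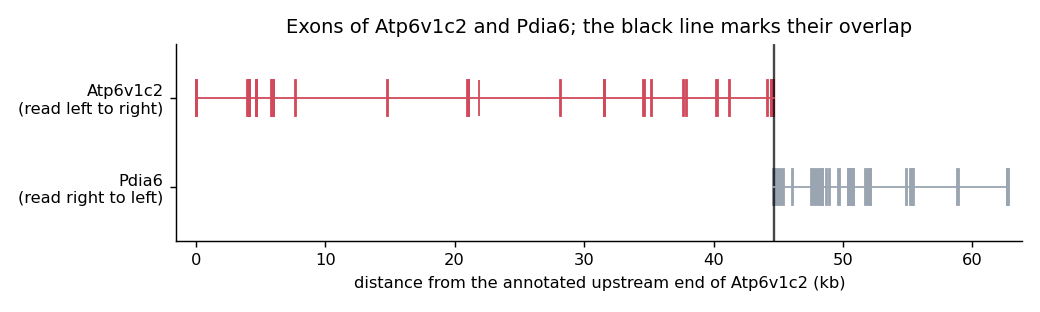
Exons (boxes) of Atp6v1c2 and Pdia6 in the annotation, by distance in kb from the upstream end of Atp6v1c2, with the black line at their 50 shared bases. The genes run toward each other and share only the ends of their last exons, so nearly all exons of Atp6v1c2 lie outside Pdia6.

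Of the 7 genes within 500 kb of Atp6v1c2 that passed the filter, 2 were past the threshold in YAP5SA OE CMs against GFP. Over all genes 22.0% were. The 2 genes were Pdia6 and Rock2, a kinase of the actin cytoskeleton 296898 bases away, named here after its values were seen (log2 fold change 0.78, standard error 0.21, FDR 0.0275). Rock2 had 2807 and 2311 counts in GFP, 3908 and 2300 in YAP6SA and 3253 and 5281 in YAP5SA. Apart from Pdia6, the nearest of the 7 was Nol10, 19099 bases away, with a log2 fold change of 0.26 (standard error 0.18, FDR 0.343). By Pearson correlation of log2 CPM over the 6 libraries, the genes most like Atp6v1c2 were Clspn (r = 0.9992), which encodes the DNA replication checkpoint protein claspin, Gm46475 and Lrtm2. Lrtm2 had 0 and 0 counts in GFP, 2 and 0 in YAP6SA and 59 and 137 in YAP5SA, and Clspn had 64 and 51, 78 and 58, and 231 and 397. In all, 75 of 13322 genes had r over 0.99, all over the same 6 libraries with the same 3 groups.

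Atp6v0d2 (chromosome 4, 19876841 to 19922605, minus strand) encodes d2, the subunit d isoform known from osteoclasts and macrophage fusion. It had 0 counts in all 6 libraries. Its partner Atp6v0d1 (chromosome 8, 105524465 to 105566047, minus strand), the d1 isoform used in most tissues, had 1002 and 983 counts in GFP, 1239 and 887 in YAP6SA and 927 and 1009 in YAP5SA. The share of Atp6v0d2 in the subunit d counts was therefore 0 of 887 to 0 of 1239, which allows up to 0.242% to 0.338% in a library. Atp6v0d1 was at 58.4 ± 8.14 CPM in GFP, 58.4 ± 6.55 CPM in YAP6SA OE CMs and 59.0 ± 3.43 CPM in YAP5SA OE CMs. YAP5SA against GFP gave a log2 fold change of 0.01 (standard error 0.17), made up of 0.22 within batch 1 and -0.18 within batch 2. Of the pair of isoform choices, that of subunit C differed between the groups and that of subunit d had no d2 counts in any group. No likeness is given for Atp6v0d2, which is at 0 throughout.

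**Figure D3:**
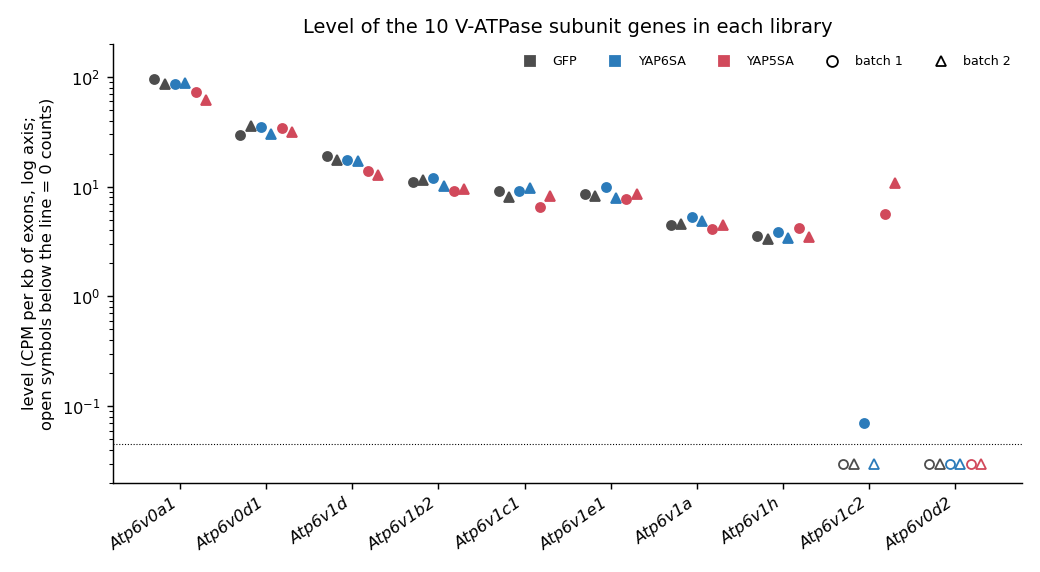
Level of each member in each library in CPM per kb of exons on a log axis, coloured by group, with circles for batch 1 and triangles for batch 2. Open symbols under the dotted line are libraries with 0 counts. The 8 common isoforms keep their order of levels from GFP to YAP6SA, Atp6v1c2 stands at 5.70 and 10.8 only in the YAP5SA libraries, and Atp6v0d2 is at 0 in all.

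Per kb of exons, the common isoforms ranked in GFP as Atp6v0a1 (90.8 ± 6.51 CPM per kb), Atp6v0d1 (32.6 ± 4.54), Atp6v1d (18.4 ± 1.19), Atp6v1b2 (11.3 ± 0.247), Atp6v1c1 (8.68 ± 0.770), Atp6v1e1 (8.36 ± 0.207), Atp6v1a (4.53 ± 0.038) and Atp6v1h (3.47 ± 0.138). The libraries of neighbours in that order did not overlap, except for Atp6v1c1 and Atp6v1e1. YAP6SA OE CMs had the same order. In YAP5SA OE CMs Atp6v1c2 took rank 5 of 10 at 8.26 ± 3.63 CPM per kb, and its libraries overlapped those of Atp6v1b2 above it and Atp6v1e1 below it. Exon unions count every annotated exon, so a level per kb is low for a gene with many rarely used exons.

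Atp6v0a1 (chromosome 11, 101009452 to 101063719, plus strand) encodes a1, an isoform of the large V0 subunit that lines the proton channel. It had 11900 and 8656 counts in GFP, 11199 and 9458 in YAP6SA and 7200 and 7280 in YAP5SA. In CPM this was 626 and 565, 569.7 and 573, and 477 and 408, so both YAP5SA libraries lay below all others. The log2 fold change of YAP5SA against GFP was -0.43 (standard error 0.17), with -0.39 and -0.47 within the batches, and that of YAP6SA against GFP was -0.06. Among the a isoforms per kb, a1 made up 73.9% and 72.2% in GFP, 73.4% and 73.4% in YAP6SA and 68.7% and 67.8% in YAP5SA. The a3 isoform Tcirg1, known from osteoclasts, made up 13.1% and 14.6% in GFP, 15.2% and 14.0% in YAP6SA and 19.4% and 18.4% in YAP5SA. The a2 isoform Atp6v0a2 made up 11.3% to 13.6% of the a isoforms in the 6 libraries, and the kidney isoform a4 (Atp6v0a4) at most 0.453%.

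Atp6v1d (chromosome 12, 78840725 to 78861638, minus strand) encodes subunit D of the central rotor shaft. It had 1682 and 1236 counts in GFP, 1587 and 1306 in YAP6SA and 968 and 1045 in YAP5SA. Its level was 84.6 ± 5.46 CPM in GFP, 80.0 ± 1.10 CPM in YAP6SA OE CMs and 61.3 ± 3.93 CPM in YAP5SA OE CMs, with both YAP5SA libraries below the rest. The log2 fold change of YAP5SA against GFP was -0.46 (standard error 0.14), and it was -0.46 within each batch. Against YAP6SA it was -0.38, and YAP6SA against GFP was -0.08.

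The V1 subunits A and B were nearer to GFP. Atp6v1b2, the B isoform of most tissues, was at 60.1 ± 1.31 CPM in GFP, 58.7 ± 6.91 CPM in YAP6SA OE CMs and 49.5 ± 1.51 CPM in YAP5SA OE CMs (log2 fold change -0.28, standard error 0.16, YAP5SA against GFP). Its YAP5SA libraries lay below the other 4. Atp6v1a, the subunit that binds and splits ATP, was at 27.4 ± 0.228, 30.9 ± 2.09 and 25.7 ± 1.47 CPM in the same order (log2 fold change -0.09, standard error 0.19). The renal and epididymal B1 isoform, Atp6v1b1, had 10 counts in 1 GFP library and 0 in the other 5, so B2 made up at least 98.7% of the B isoforms per kb.

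Subunits E and H, of the peripheral stalk and the regulatory part of V1, showed small differences in both directions. Atp6v1e1 was at 34.4 ± 0.85 CPM in GFP, 36.8 ± 6.05 CPM in YAP6SA OE CMs and 33.5 ± 2.62 CPM in YAP5SA OE CMs, and its groups overlapped. The testis isoform Atp6v1e2 had 0 counts in all 6 libraries. Atp6v1h was at 33.8 ± 1.35, 35.5 ± 2.81 and 37.4 ± 4.88 CPM, and its log2 fold change in YAP5SA OE CMs was 0.14 (standard error 0.17). Exons of Atp6v1e1 share 32 bases with Slc25a18 and those of Atp6v1h share 127 bases with Rgs20, on the opposite strands, and these neighbours had 233 and 5 counts over all libraries beside 3636 and 3677 for the members.

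Over the 8 common isoforms, 6 were lower and 2 higher in YAP5SA OE CMs than in GFP, with log2 fold changes from -0.46 to 0.14 and a median of -0.16. The median of all genes tested was 0.00. In YAP6SA OE CMs 4 were lower and 4 higher, from -0.08 to 0.17 with a median of 0.03. In YAP5SA against YAP6SA 6 were lower and 2 higher, with a median of -0.25 beside -0.01 over all genes. The groups did not overlap for 4 of the 8 in YAP5SA against GFP, 1 in YAP6SA against GFP and 5 in YAP5SA against YAP6SA. Over all genes they did not overlap for 60.9%, 34.3% and 57.6%. Signs of values this near 0 depended on the setting for 3, 5 and 2 of the 8 genes in the 3 comparisons, among them Atp6v1e1 and Atp6v0d1 in each.

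At a false discovery rate (FDR) under 0.05 over all 13323 genes, 22.0% passed in YAP5SA against GFP (edgeR quasi-likelihood test), 12.8% higher and 9.18% lower. In YAP6SA against GFP 0.045% passed, 0.045% higher and 0.0% lower, and in YAP5SA against YAP6SA 14.7% passed, 9.0% higher and 5.68% lower. At an unadjusted p under 0.05 in that test, 2591 of the 13323 genes were higher and 2261 lower in YAP5SA against GFP. The same counts were 514 and 276 in YAP6SA against GFP and 2180 and 1929 in YAP5SA against YAP6SA. These shares and counts are the background for the gene lists that follow. The members, which were selected on these libraries, were not counted against them.

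The other 15 V-ATPase genes were tested as the remainder of the complex, which the choice of members left out. Members and lists were chosen with earlier results of these data known, so counts over this remainder are not independent of that choice. Passing the filter were 11 of them, and 0 were past the threshold in any of the 3 comparisons (edgeR quasi-likelihood test, likelihood ratio test, limma-voom and DESeq2 alike). In YAP5SA against GFP, 2 of the 11 had an unadjusted p under 0.05. Atp6v0c, the proton-binding ring subunit c, had a log2 fold change of 0.87 (standard error 0.37, FDR 0.117) at only 43 to 109 counts a library. Atp6v0a2, the a2 isoform, had a log2 fold change of -0.40 (standard error 0.15, FDR 0.0775). The median over the 11 was 0.12. In YAP6SA against GFP and in YAP5SA against YAP6SA, 0 of the 11 had an unadjusted p under 0.05 and the medians were 0.22 and -0.03.

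Of the V1 genes outside the members, Atp6v1f (subunit F) had a log2 fold change of 0.54 (standard error 0.25), Atp6v1g1 of 0.28 (0.18) and Atp6v1g2, the G isoform of neurons, of 0.41 (0.28) in YAP5SA against GFP. G2 made up 10.4% and 11.2% of subunit G per kb in GFP, 8.11% and 17.8% in YAP6SA and 11.8% and 11.7% in YAP5SA, so its share did not separate the groups. Atp6v1g3, the kidney G isoform, had 0 counts in all libraries. Of the V0 genes, Tcirg1 had a log2 fold change of 0.12 (0.15), Atp6v0b of -0.20 (0.15), Atp6v0e of 0.14 (0.18) and Atp6v0e2 of -0.12 (0.25). The accessory subunits Atp6ap1 and Atp6ap2 had -0.08 (0.14) and -0.07 (0.28). None of these values differed from 0 beyond the threshold. Atp6v0a4 had 2 to 36 counts a library and was not tested.

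**Figure D4:**
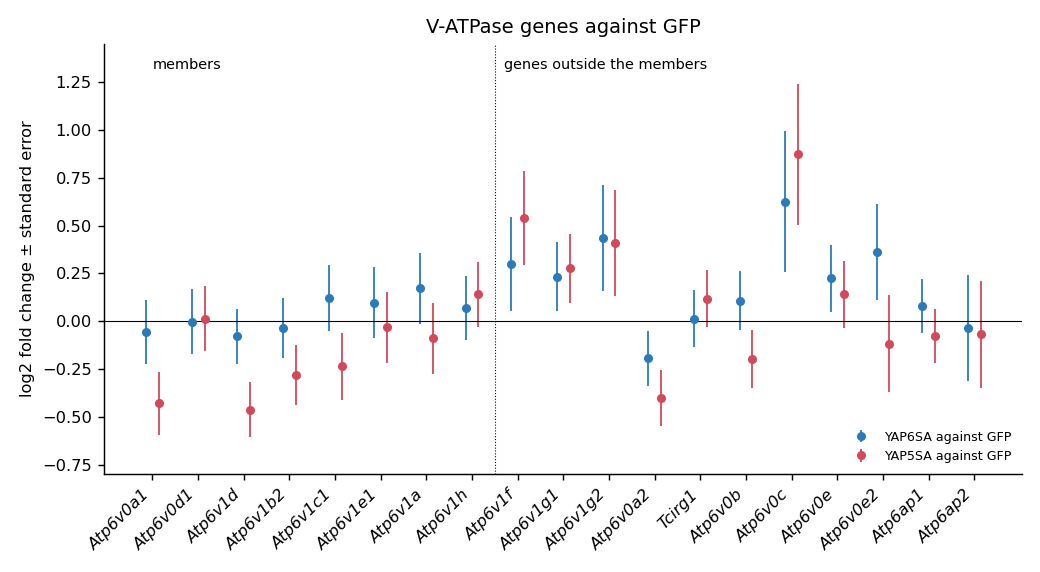
Points give the log2 fold change against GFP and bars its standard error, in YAP6SA OE CMs (blue) and YAP5SA OE CMs (red), for the 8 members with a fold change on the left and the 11 tested genes outside them on the right. Atp6v1d (-0.46) and Atp6v0a1 (-0.43) are the lowest red points and Atp6v0c (0.87) the highest, with the widest bar among the red points.

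Around the pump, the genes past the threshold in YAP5SA OE CMs are given by list, and no list was tested as a whole. In the list of lysosomal nutrient sensing, 3 of 17 genes fell and 0 rose in YAP5SA against GFP, where 9.18% of all genes fell and 22.0% passed in either direction. Mitf, a transcription factor related to TFEB, fell by 1.06 (log2, standard error 0.30, FDR 0.0293). Rragd, a Rag GTPase that recruits mTORC1 to the lysosome, fell by 0.84 (standard error 0.19, FDR 0.0145). Tfeb, the transcription factor of lysosome and autophagy genes, fell by 0.66 (standard error 0.15, FDR 0.0118), by 0.58 and 0.74 within the batches. Against YAP6SA, Rragd fell by 0.70 and Tfeb by 0.57 (FDR 0.0383 and 0.0278). The median log2 fold change of the list was -0.23 against GFP and -0.34 against YAP6SA. In YAP6SA against GFP 0 of the 17 passed, 1 had an unadjusted p under 0.05, and the other tools also passed 0.

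Of 34 lysosome genes, 8 fell and 1 rose in YAP5SA against GFP, where 9.18% of all genes fell and 12.8% rose. Those that fell furthest were Idua, which degrades glycosaminoglycans (by 0.91, standard error 0.23, FDR 0.0221), the protease gene Ctsf (by 0.82, standard error 0.25, FDR 0.0453), Gaa, the lysosomal enzyme that degrades glycogen (by 0.74, standard error 0.17, FDR 0.0124), and the cholesterol exporter gene Npc1 (by 0.66, standard error 0.19, FDR 0.0317). Its partner Npc2 rose by 0.87 (standard error 0.21, FDR 0.0156). Against YAP6SA 7 fell and 0 rose, where 5.68% and 9.0% of all genes did, among them Smpd1, the acid sphingomyelinase (by 0.80, standard error 0.15, FDR 0.0076). The median over the list was -0.03 against GFP and -0.26 against YAP6SA, and 17 of the 34 values against GFP were above 0. In YAP6SA against GFP 0 passed, with 3 of 34 higher at an unadjusted p under 0.05, and 0 by the likelihood ratio test, limma-voom and DESeq2.

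Of 14 genes for assembly and regulation of the pump, 13 were tested. In YAP5SA against GFP 1 of the 13 passed, where 22.0% of all genes did and 9.18% fell. Against YAP6SA 1 passed, where 14.7% of all genes did. Rogdi, whose product is part of the RAVE-like complex that assembles V1 with V0, fell by 1.00 against GFP (log2, standard error 0.25, FDR 0.0179) and by 0.99 against YAP6SA (FDR 0.0265). Its within-batch values against GFP were -0.69 and -1.40, so batch 2 gave the larger difference. In YAP6SA against GFP 0 of the 13 passed and 1 had an unadjusted p under 0.05. The batch 2 difference was also the larger one for Mitf (-0.48 and -1.77), Idua (-0.41 and -1.47), Ctsf (-0.38 and -1.27) and Gaa (-0.47 and -1.01).

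**Figure D5:**
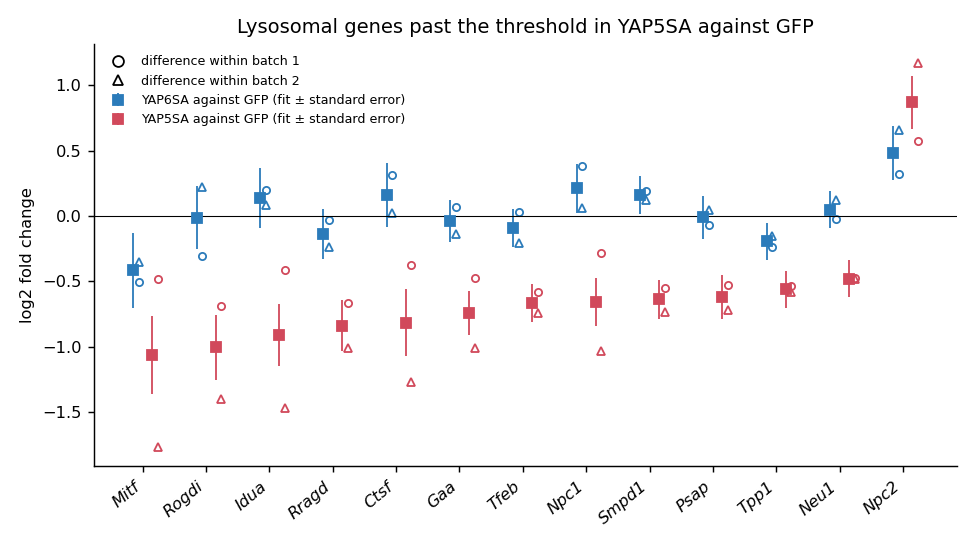
For each gene of the 3 lists past the threshold in YAP5SA against GFP, squares with bars give the fitted log2 fold change and its standard error in YAP6SA OE CMs (blue) and YAP5SA OE CMs (red), and open circles and triangles the difference within batches 1 and 2. Every red square but that of Npc2 (0.87) lies below 0, from Mitf (-1.06) to Neu1 (-0.48), and for Mitf, Rogdi and Idua the triangle lies far below the circle.

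These counts leaned on single libraries. In YAP5SA against GFP, without the GFP library of batch 2, 0 of 34 lysosome genes, 0 of 17 nutrient sensing genes and 0 of 13 assembly genes passed, and 738 of all genes in place of 2931. Without the GFP library of batch 1 they were 5, 4 and 2 with 1923 of all genes, without the YAP5SA library of batch 2 they were 2, 2 and 2 with 1740, and without the YAP5SA library of batch 1 they were 12, 6 and 5 with 4863. With no replicate block, that is without the batch term, 4 lysosome genes passed against GFP and 4 against YAP6SA, and for nutrient sensing 2 and 0. Over the 13 alternatives, Tfeb, Rragd and Gaa fell short of the threshold against GFP only without the GFP library of batch 2. Rogdi fell short without either batch 2 library. Other genes were less steady against GFP: Npc2 fell short in 2 alternatives, Mitf, Idua and Npc1 in 3, Ctsf in 4 and Neu1 in 7. Against YAP6SA, Tfeb and Rragd each fell short in 5.

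Markers of other cells moved with the YAP5SA group in part. The 18 macrophage markers summed to 96.2 to 138 CPM in GFP, 123 to 151 CPM in YAP6SA and 132 to 201 CPM in YAP5SA. Of the 16 tested, 3 rose in YAP5SA against GFP, where 12.8% of all genes rose. They were Itgam (by 1.84, FDR 0.0462), Lyz2 (1.43, FDR 0.0061) and C1qa (0.96, FDR 0.0228). Of the 16 values 15 were above 0, with a median of 0.37 beside -0.003 over all genes. The values of Csf1r and Cd68 were 0.32 and 0.21 (FDR 0.261 and 0.667), and Adgre1 had 14 to 58 counts. The 10 osteoclast and phagocyte fusion genes summed to 19.2 to 28.6, 21.8 to 28.7 and 31.5 to 34.5 CPM, with Acp5 at 6 to 24 counts, Ctsk at 62 to 209, and Ocstamp at 0 in all libraries. None of the 4 tested passed (edgeR quasi-likelihood test), and 1 had an unadjusted p under 0.05.

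The 10 epithelial markers, of the cells in which C2 is best known, summed to 26.8 to 40.2 CPM in GFP, 18.0 to 31.1 CPM in YAP6SA and 70.5 to 142 CPM in YAP5SA. Krt7 (log2 fold change 5.42), Krt18 (2.33) and Krt19 (2.21) rose and Grhl2 fell by 1.54 in YAP5SA against GFP (FDR 0.000469, 0.0065, 0.0291 and 0.0018). The defining markers Epcam and Cdh1 had at most 3 and 9 counts in a library, and Esrp1 had 0. The Atp6v1c2 counts of 187 and 420 thus stood beside keratin counts and nearly none of Epcam and Cdh1, and the part of other cells in them was not tested. The fibroblast, endothelial and mural lists summed to 972 to 1556, 366 to 452 and 512 to 574 CPM in GFP and to 1081 to 1698, 405 to 505 and 353 to 450.0 CPM in YAP5SA. In those lists 0 of 10, 0 of 10 and 2 of 7 tested genes passed against GFP, where 22.0% of all genes did. The last were Myh11 (1.00) and Abcc9 (-0.81). At an unadjusted p under 0.05 in the edgeR quasi-likelihood test there were 3, 0 and 3. Values above 0 were 7 of 10, 9 of 10 and 2 of 7, with medians of 0.22, 0.20 and -0.13.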

How the data were processed

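Poly-A libraries that do not mark strand were aligned by the authors with STAR (mm10, that is GRCm38, Ensembl genes), and the deposited values are raw counts of reads for each gene, 1 column per library. The summary rows (unmapped, multimapped, outside genes, ambiguous) name no gene and were left out. They held 3.03% to 3.63%, 2.9% to 4.19%, 9.43% to 9.84% and 5.79% to 6.31% of the reads. Symbols, coordinates and exon lengths came from GENCODE M21.

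Genes were kept with a median log2 CPM over 1 in at least 1 group, as the study's methods state. Counts were fitted with edgeR 4.0.16 in R 4.3.3 (TMM scaling, quasi-likelihood test, 6 libraries, terms for group and batch), with Benjamini-Hochberg adjustment over all genes and a threshold of 0.05. The procedure was tested on simulated data. The labels give a replicate number, which was taken as the batch. Same-batch libraries deviated together from their group means mainly between GFP and YAP6SA (correlation across genes 0.368). The correlation was weak between GFP and YAP5SA (0.0985) and between the YAP variants (0.175). Replicates differed by 25.3 to 39.6 times the counting noise (chi-square per degree of freedom), so no library was a copy. The p-values measure the spread between these libraries.

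The members and the gene lists were chosen with earlier results of these data known. Named are the members, the other V-ATPase genes, genes that overlap a member's exons, up to 4 genes past the threshold with the largest change per list, comparison and direction, the 3 genes most like Atp6v1c2, and defining markers of other cells. Alternatives were RLE and upper quartile scaling, another filter (none, or a minimum of 10 counts per library), the likelihood ratio test, DESeq2 1.42.0, limma-voom (limma 3.58.1), no replicate block, fits of the 4 libraries of a comparison alone, cut-offs of 0.01 and 0.1, leaving out a library, and other lengths for the shares.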

Additional observations from a re-analysis of the deposited data

How the results depend on the processing

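The counts of all genes, 2931 for YAP5SA against GFP, 6 for YAP6SA against GFP and 1956 for YAP5SA against YAP6SA, became 1117, 2 and 660 at a threshold of 0.01, and the last 3039 at 0.1. For YAP6SA against GFP there were 145 with no filter on low counts, 82 by the likelihood ratio test, 54 by DESeq2 and 276 with only the 4 libraries compared. With no replicate block it was 0, and YAP5SA against YAP6SA 1152. Without 1 library the 3 counts ran from 738 to 4863, 6 to 12 and 396 to 4160. In such fits the lone library of a group is assumed to vary like the others.

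Of the V-ATPase genes outside the members, 1 passed at 0.1 in YAP5SA against GFP and 0 in all other settings and comparisons. The assembly genes were 1 in both YAP5SA comparisons, 0 at 0.01, and 2 with no filter, by the likelihood ratio test, DESeq2 and limma-voom and with only the 4 libraries compared. At 0.1 they were 5 against GFP and 2 against YAP6SA, and without 1 library 0 to 5 and 0 to 3. The lysosome genes, 9 against GFP and 7 against YAP6SA, were 0 and 1 at 0.01, 4 and 4 with no replicate block, and 0 to 12 in both without 1 library. The nutrient sensing genes, 3 and 2, were 0 and 0 at 0.01 and 0 to 6 in both without 1 library. Against YAP6SA they were 0 with no replicate block and with only the 4 libraries compared.

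The share of Atp6v1c2 in subunit C of YAP5SA OE CMs was 51.6%, 29.5% with no length correction, 56.5% per kb of the longest transcript, and 46.5% to 56.7% without 1 library. The share of Atp6v0d2 was 0 throughout. The smallest fold of Atp6v1c2 was 101 to 102 under the other scalings and 70.1 to 133 without 1 library. Without the GFP library of batch 1 the value of Atp6v0e2 in YAP5SA against GFP turned to 0.16 and that of Atp6ap2 to 0.05. Without 1 library they ran from -0.35 to 0.16 and from -0.36 to 0.21, none past the threshold. The named genes of the lysosome, nutrient sensing and assembly lists that passed against GFP kept their direction in all 13 alternatives. The marker genes and the neighbours of Atp6v1c2 were not run through them.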
